A study of Rattus norvegicus with 40 samples.

Results

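The comparison of 1 Hz with sham stimulation in hippocampal slices of aged unimpaired (AU) rats rests on 8 arrays of the 40 in the series. These are the primary arrays labelled AU sham and AU 1 Hz, 4 of each, and each rat gave 1 array to each group, so that the arrays form 4 pairs. Male Long-Evans rats, an outbred strain widely used for studies of memory, were trained in a water maze, and an aged rat was called AU when it learned as well as young animals. The characteristics in the labels give an age of 25 to 26 months and RNA collection 1 h after stimulation, while their protocol text gives 24 to 25 months and a rest of 2 h. Aged rats that learned worse than young animals were called aged impaired, and their labels give the same ages as those of AU rats. The rats of the young group have a lower age in the labels, the same in the characteristics and the protocol text. A contrast of AU with young slices therefore spans a difference in age. Hippocampi of each rat were cut into slices 1 mm thick, shared equally between 3 dishes (sham, 1 Hz and intermittent theta burst, iTBS), and kept for 1 h in artificial cerebrospinal fluid before stimulation. The stimulator was set to 15% of its full power. The AU 1 Hz slices lay 1 cm below the center of the coil and the AU sham slices 20 cm from it. All groups therefore share the dissection, the slicing and the incubation, and no array shows the hippocampus of an AU rat without them. RNA of the slices of a dish was hybridized to a one-color Agilent rat array.

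Repetitive transcranial magnetic stimulation (rTMS) induces electric currents in neural tissue through a changing magnetic field. Trains at 1 Hz are classed as low-frequency stimulation, which in the human motor cortex tends to lower excitability, whereas iTBS gives short bursts and tends to raise it. In the hippocampus, strong synaptic activity switches on immediate early genes such as *Fos*, *Egr1* and *Arc* within an hour or less, and cutting a slice by itself activates microglia and induces cytokine, chemokine and stress genes. A level below is a z-score within the array that was rescaled by the average SD of all arrays, so that it counts log2 units from the mean of its array, and a difference is 1 Hz minus sham on this log2 scale. In tissue RNA, fewer cells of a type and less RNA per cell cannot be told apart.

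No gene passed the test in AU slices after 1 Hz. Of 32562 probes tested, 0 had an adjusted p under 0.05 (0%) by limma with the rat as a block, and the smallest adjusted p was 0.897. Without adjustment, 1075 probes (3.3%) had p under 0.05, of which 521 were higher (1.6%) and 554 lower (1.7%). Counted over genes, with the brightest probe of each, 402 of 13186 (3.05%) were at that level, 189 of them higher (1.43%) and 213 lower (1.62%). The difference had the same sign in all 4 rats for 437 genes that were higher (3.31%) and for 597 that were lower (4.53%), and the 4 arrays of 1 Hz and the 4 of sham did not overlap for 22 genes that were higher (0.167%) and 42 that were lower (0.319%). The median difference over all genes was -0.01, with 53.4% of genes below 0 and 46.6% above. The split of the 1075 probes depends on the scaling: 48.5% of them were higher here, but 80.2% of 1101 were higher when each array was scaled to its 75th percentile, where 35.7% of all genes lay below 0. The median SE of a difference was 0.20 on the log2 scale, and in data simulated on these arrays a log2 change of 1 was found at 58% of the changed probes and one of 2 at 94%.

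Markers of hippocampal cell types were detected in the slices. Of all 45598 probes, 27362 lay well above background on all 8 arrays, so such counts do not identify the tissue. All 15 astrocyte markers, all 19 oligodendrocyte markers and all 15 markers of homeostatic microglia present on the array lay well above background on all 8 arrays, as did 7 of 8 markers of CA1 pyramidal cells, 9 of 10 of CA2 and CA3, 7 of 8 of dentate granule cells and 15 of 16 of interneurons. Lists of other tissue passed too, with 9 of 9 markers of thalamus and cortex, 14 of 15 of meninges and fibroblasts and 7 of 8 of red blood cells. Choroid plexus markers were sparser, with 5 of 16 at that level and *Clic6* and *Sostdc1* above background on none of the 8 arrays. Of the T cell markers 6 of 15 were, and *Cd8a* was not on any array. From 73.67% to 89.5% of features per array lay well above background in sham and from 71.76% to 89.26% after 1 Hz (exact permutation test over the 4 pairs, two-sided, p = 0.875, where 0.125 is the smallest value 4 pairs allow).

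The labels pair the arrays by rat, and the arrays bear this out. On the young and aged impaired (AI) arrays, which hold other rats, 62 probes had levels that differed far more between rats than within them. Over these 62 probes, sham and 1 Hz arrays of the same rat correlated at 0.875 to 0.946 and those of different rats at -0.627 to 0.263, which describes the pairs and is across probes. Each of 13 AU arrays, the iTBS arrays and 1 repeat included, was most like an array of its own rat.

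The 4 rats differed among themselves in how far 1 Hz and sham lay apart. Over the tested probes the SD of the difference was 0.537 in rat 1, 0.415 in rat 2, 0.772 in rat 3 and 0.660 in rat 4. Differences beyond 3 in log2 were found at 68 probes in rat 1 and 18 in rat 2, against 454 in rat 3 and 287 in rat 4. Of these, 331 of 454 in rat 3 and 168 of 287 in rat 4 were upward. In rat 3 the sham array was the one farther from the median of all arrays at 333 of the 454 probes.

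**Figure D1:**
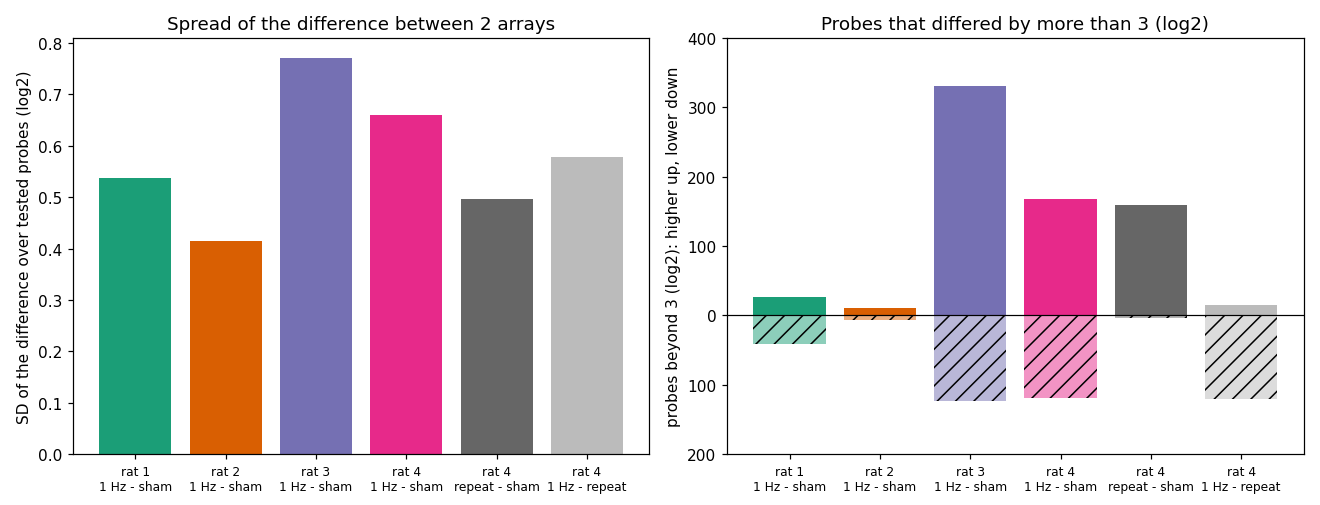
Left, the SD over tested probes of the difference between 2 arrays (log2), for 1 Hz minus sham in each AU rat and for the repeat hybridization of the sham sample of rat 4. Right, the number of probes with a difference beyond 3 (log2), higher drawn upward and lower (hatched) downward. Rat 3 has the widest spread, 0.772, and a second array of one RNA, hybridized on another slide, is at 0.496.

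A second hybridization of the sham sample of rat 4 gives a spread without any treatment, but it lay on another slide than sham 4, whereas the sham and 1 Hz arrays of each rat shared a slide. Repeat minus sham of that rat had an SD of 0.496 over the same probes and 163 differences beyond 3, 159 of them higher. Of the 287 probes beyond 3 in rat 4, 118 (41.1%) stayed beyond 3 in the same direction when the repeat took the place of the sham array, and 152 (53%) came to lie within 1. Sham was the farther array at 169 of the 287 probes, and at 150 of these the repeat was within 1 of the 1 Hz array. At the other 118 probes the 1 Hz array was the farther one, and at 114 the repeat was within 1 of sham.

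Genes with more than 1 tested probe allow the same check within an array. Over the 4 rats there were 176 differences beyond 3 at probes of such genes. Another probe of the gene was also beyond 3 in the same direction for 8 of them, 6 of these in rat 1, and all other probes of the gene were within 1 for 154. Large single-probe differences are also part of the count at the unadjusted threshold, whose probes were selected on these same differences. Of the 1075 probes, 365 (34%) had a difference beyond 3 in 1 or more rats, against 803 of all 32562 (2.47%), and the largest difference lay in rat 3 for 609 (56.7%) and in rat 4 for 282 (26.2%).

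The correlation over probes of the difference in rat 1 with that in rat 2 was -0.474, and the other 5 pairs of rats ran from -0.119 to 0.204. These values are across probes, which share the arrays and their scaling, and are given as a description. Rats 1 and 2 lay apart in many gene lists. Median differences in rat 1 and rat 2 were -0.52 and 0.87 for markers of excitatory neurons, -0.68 and 0.62 for CA2 and CA3, -0.68 and 0.36 for dentate granule cells, -0.30 and 0.60 for oligodendrocytes, and 0.86 and 0.03 for interneurons. All 19 oligodendrocyte markers tested were above 0 in rat 2 and 16 of 19 were below 0 in rat 1. Markers of CA2 and CA3 were above 0 at 9 of 9 in rat 2 and below 0 at 7 of 9 in rat 1. The part that the makeup of the slices in each dish has in the other differences was not tested.

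The genes named first were found by a rule: a gene symbol, a level well above background on all 8 arrays, the same sign in all 4 rats, and among these the 12 smallest p in each direction. Since the rule uses the differences, their sign and size are a description, and each ± is the SE of the fit. All 24 had an adjusted p of 0.9999, and the smallest adjusted p that any of them reached under another processing was 0.7461. The groups did not overlap for 7 of the 24.

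Among the 12 higher genes was *Calb1*, which encodes calbindin, a calcium buffer abundant in dentate granule cells. Its level in rats 1 to 4 was 0.24, 0.57, 0.04 and 1.12 in sham, and the 1 Hz arrays lay above it by 0.96, 0.20, 1.69 and 0.62. Each 1 Hz array was above the sham array of its rat, while the groups overlapped, since sham of rat 4 was above 1 Hz of rat 2, at 0.77. The fitted difference was 0.87 ± 0.30 (SE of the limma fit, 4 rats, adjusted p = 0.9999) and lay between 0.59 and 1.09 when 1 rat at a time was left out. *Prox1*, the transcription factor that specifies dentate granule cells, was also higher in all 4 rats, by 0.37, 0.24, 0.43 and 0.14. Its fitted difference was 0.30 ± 0.12, 0.25 to 0.35 leaving out 1 rat, and 0.39 with the repeat of sham 4 in place. The other 5 tested markers of these cells were below 0, from *C1ql2* at -0.30 to *Lct* at -0.04, so the markers of these cells had both signs.

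*Prokr2*, a receptor for prokineticins, was read at -2.42, -1.83, -1.86 and -2.50 in sham and at -1.63, -1.80, -1.42 and -1.81 after 1 Hz. The lowest 1 Hz array lay just above the highest sham array, and the difference was 0.49 ± 0.17. The other genes of this direction were *Pnma3*, a member of the paraneoplastic antigen family, at 0.31 with 0.22 to 0.36 in single rats, *Acbd4*, an acyl-CoA binding protein, at 0.31 with 0.23 to 0.40, *Tcf15*, a transcription factor of mesoderm development, at 0.42 with 0.26 to 0.84, *Pax3*, a transcription factor of the neural crest, at 0.54 with 0.16 to 1.18, and *Avpr2*, the V2 receptor for vasopressin, at 0.37 with 0.20 to 0.56. *Pax3* was at 0.32 without rat 3. Sham 4 and its repeat, which lay on another slide, read 3.45 and 3.05 for *Pnma3* and 4.53 and 4.24 for *Acbd4*. They read 4.15 and 3.79 for *Tcf15*, 3.58 and 2.99 for *Pax3*, and -3.12 and -2.72 for *Avpr2*. These gaps are about as large as the fitted differences. With the repeat in place the differences of *Pnma3*, *Acbd4*, *Tcf15*, *Pax3* and *Avpr2* were 0.40, 0.39, 0.51, 0.68 and 0.27. With normexp and quantile normalization *Avpr2* was at 0.13 and *Prokr2* at 0.20, and both are dim probes. A second probe of *Pnma3* gave 0.16, and one of *Acbd4* gave -0.80, with -0.76, 0.61, -2.99 and -0.05 in rats 1 to 4.

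The 4 largest differences among the 12 each came from 1 sham array, and so did that of *Sart3*. *Vcp*, an ATPase that extracts ubiquitinated proteins from complexes and membranes, was read at 4.07, 4.08, 0.15 and 4.11 in sham and at 4.23, 4.43, 4.36 and 4.40 after 1 Hz. The sham array of rat 3 stood alone, and without rat 3 the difference went from 1.25 to 0.27. *Gria1*, the GluA1 subunit of AMPA-type glutamate receptors, was read at 4.21, 3.87, 4.33 and -0.42 in sham and at 4.41, 4.54, 4.44 and 4.51 after 1 Hz. The repeat of the low sham array of rat 4 read 4.53, the difference of 1.48 became 0.24 with the repeat in its place, and a second probe of *Gria1* differed by 0.30. *Gspt2*, a translation termination factor, *Fbxo9*, a ubiquitin ligase subunit, and *Sart3*, a splicing factor, had differences of 1.36, 1.01 and 0.88, with 4.79, 3.25 and 2.59 in rat 3. Without rat 3 these were 0.22, 0.27 and 0.31.

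Among the 12 lower genes, *Smoc2*, a matricellular protein, was read at 0.15, -0.11, -0.36 and 0.66 in sham and at -1.21, -1.11, -0.51 and -0.28 after 1 Hz. It was lower in every rat, least in rat 3, and had the smallest p of the 24, with a difference of -0.87 ± 0.25. Leaving out 1 rat gave -1.10 to -0.70, and the repeat of sham 4, at 0.94, lay on the sham side. *Rspo3*, an R-spondin that enhances Wnt signaling, was read at 1.83, 1.78, 1.77 and 2.23 in sham and at 1.31, 1.17, 0.01 and 1.23 after 1 Hz. All sham arrays were above all 1 Hz arrays, and the difference was -0.97 ± 0.33, or -0.71 without rat 3. *Ism1*, isthmin 1, differed by -0.88, with -2.52 in rat 1, and by -0.33 without that rat.

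*Avp*, which encodes vasopressin, was read at 0.15, 1.27, 0.10 and 0.22 in sham and at -0.73, -0.54, 0.06 and 0.00 after 1 Hz. No sham array was as low as any 1 Hz array, by a narrow margin in rat 3, and the difference of -0.74 ± 0.23 became -0.38 without rat 2, whose sham array was the highest. *Acer2*, an alkaline ceramidase, and *Pabpc4*, a cytoplasmic poly(A)-binding protein, did not overlap either, with differences of -0.64 and -0.34, though *Pabpc4* was at -0.16 without rat 4 and at -0.18 with normexp and quantile normalization, and a second probe of it gave 0.02. The remaining 6 were *Dnajc25*, a J-domain cochaperone (-0.56), *Fkbp7*, a prolyl isomerase of the endoplasmic reticulum (-0.46), *Atraid* (-0.40), *Nr1h2*, the liver X receptor beta (-0.56), *Fam110d* (-0.85) and *Syne4*, a nesprin of the nuclear envelope (-0.42). The largest single difference lay in rat 3 for 5 of these 6, the exception being *Syne4*. Without rat 3 the differences were -0.26 (*Dnajc25*), -0.27 (*Fkbp7*), -0.22 (*Atraid*), -0.17 (*Nr1h2*) and -0.36 (*Fam110d*), and without rat 4 that of *Syne4* was -0.26. For *Syne4*, sham 4 read 1.16 and its repeat 0.44, and with the repeat in place the difference was -0.24.

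**Figure D2:**
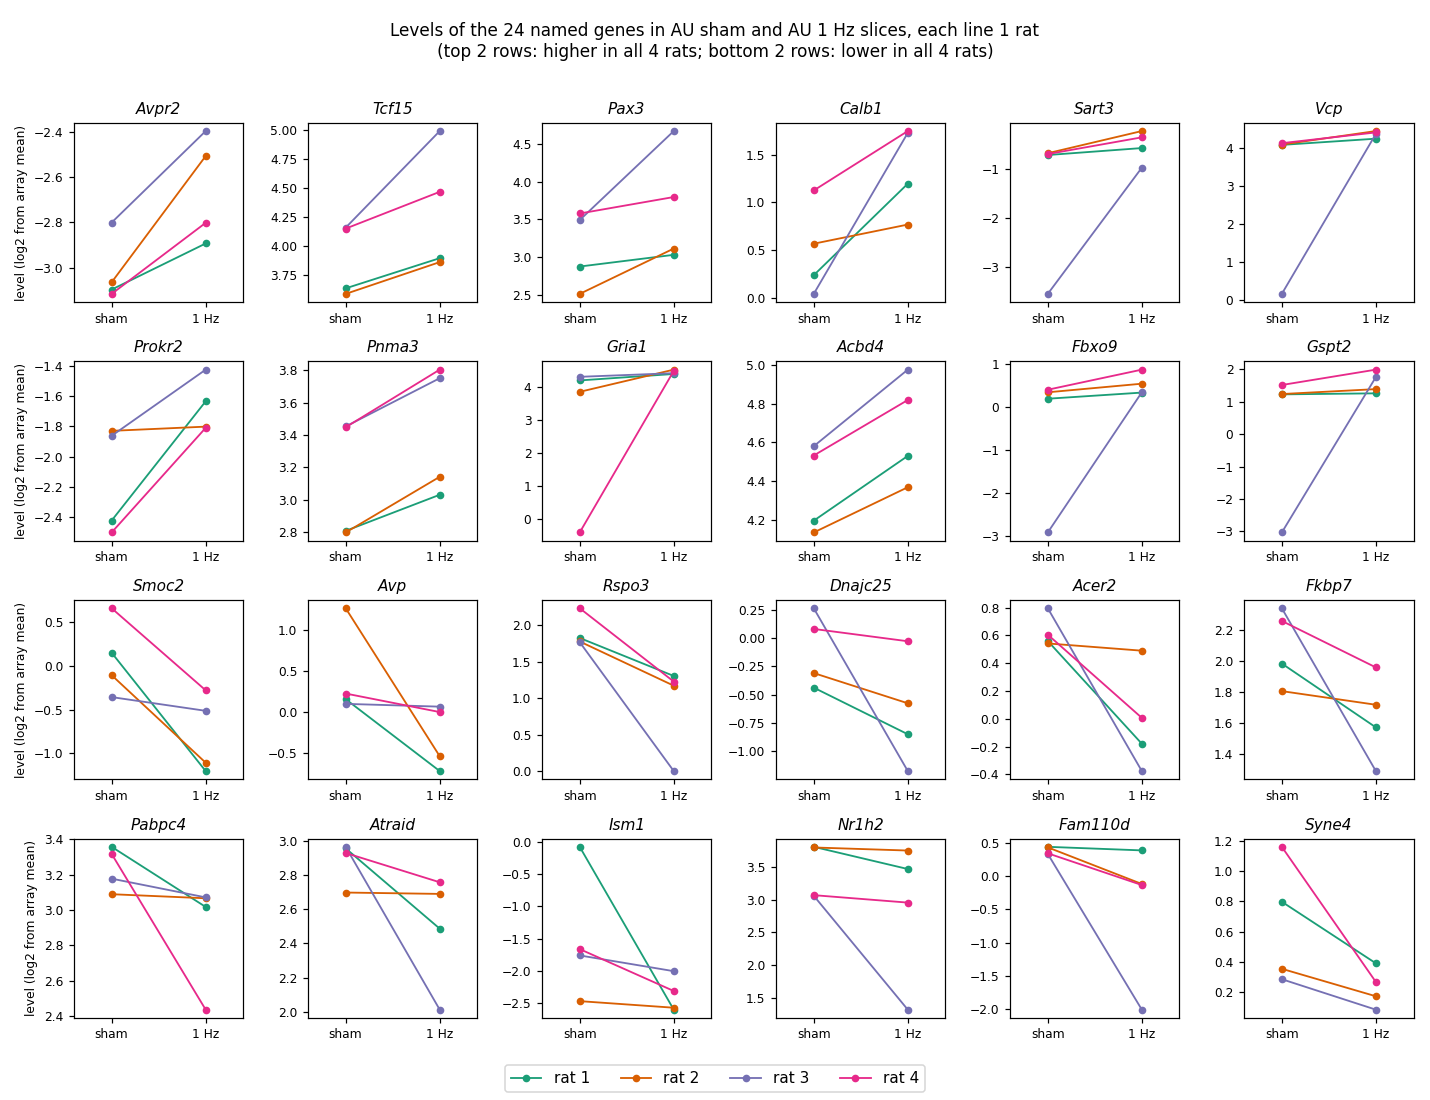
Level of the 24 named genes (log2 units from the array mean) in AU sham and AU 1 Hz slices, with each line joining the arrays of 1 rat; the vertical axes differ between panels. *Vcp*, *Sart3*, *Fbxo9* and *Gspt2* show 1 low sham array of rat 3 and *Gria1* 1 low sham array of rat 4, while *Pnma3* and *Acbd4* run nearly parallel in the 4 rats. The repeat of sham 4, not drawn, read 3.05 for *Pnma3* and 4.24 for *Acbd4*, against 3.45 and 4.53 for sham 4.

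The selection criteria in the methods of the study were also applied as far as their text gives the steps, so the count below is that of one reading of them. They ask for an analysis of variance and a test on z each past 0.05, a z-ratio (the difference in z over its SD across probes) whose size is over 1.5, a positive average z, and a false discovery rate under 0.3, which was taken here over the probes past the analysis of variance. Of 1313 probes past the analysis of variance over the 9 groups, 2 met all of these in AU 1 Hz, both lower. *Bcl3*, a nuclear regulator of NF-kappaB, was read at 2.08, 1.63, 1.97 and 1.53 in sham and at 1.33, 1.23, 1.75 and 0.89 after 1 Hz. *Runx1*, a transcription factor of blood and microglial cells, was read at 0.71, 0.76, 1.35 and 0.47 in sham and at 0.23, 0.11, 0.67 and 0.20 after 1 Hz. Both were lower in 4 of 4 rats with overlapping groups, with z-ratios of -1.53 and -1.58. Their fitted differences of -0.50 ± 0.32 and -0.52 ± 0.39 did not reach an unadjusted p under 0.05 in limma.

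Gene lists for pathways, gene families and cell types were read next. Of 705 list genes tested, 24 (3.4%) were at an unadjusted p under 0.05, near the 3.05% of all genes, with 9 higher and 15 lower, and none passed after adjustment. For 11 of the 24 the difference was beyond 2 in at least 1 rat.

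No common shift of immediate early genes was found. Of 23 transcription factors of this kind, 12 were below 0 and 11 above, with a median of -0.02 (all genes -0.01). *Fos* was read at 3.31, 3.39, 3.32 and 3.57 in sham and at 3.69, 3.46, 3.36 and 3.23 after 1 Hz, a difference of 0.04 with a 95% interval of -0.34 to 0.42. *Egr1* was at 4.96, 5.00, 4.82 and 5.36 in sham and at 5.51, 5.12, 5.02 and 4.77 after 1 Hz, a difference of 0.07 with an interval of -0.34 to 0.48. For both genes 3 rats were higher and rat 4 was lower. *Arc*, which encodes a synaptic protein that controls AMPA receptor removal, differed by -0.07 with an interval of -0.40 to 0.27. *Fosl1*, the Fra-1 subunit of AP-1, was the one gene of the 23 at an unadjusted p under 0.05, at -0.80 ± 0.38, with -1.12, -1.63, -0.53 and 0.08 in rats 1 to 4, and at -0.52 without rat 2. *Maff* and *Crem* were lower in all 4 rats, with fitted differences of -0.53 and -0.19. The list changed sides between rats, with medians of 0.33, -0.11, 0.10 and -0.29. Of 23 activity-regulated effector genes none was at p under 0.05, and their median was -0.01. *Bdnf*, a neurotrophin, differed by -0.93, 0.44, -0.35 and 0.38 in the 4 rats.

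Most genes of the inflammatory lists had fitted differences below 0, by small amounts. Genes of a list share the 4 pairs of arrays and can move together. Counts over them, here and below, are therefore a description and not a test. Of 27 interferon response and MHC genes, 25 were below 0 (92.59%, against 53.4% of all genes) with a median of -0.17. Their medians in rats 1 to 4 were -0.10, -0.12, -0.11 and -0.25, against -0.08, 0.04, -0.04 and 0.04 over all genes. None of the 27 was at an unadjusted p under 0.05. *Rsad2*, an antiviral enzyme induced by interferon, was read at 0.49, 0.58, 1.91 and 0.78 in sham and at -0.55, 0.19, 1.53 and 0.14 after 1 Hz, with a difference of -0.61 ± 0.33. It was lower in all 4 rats, as were *Ifi44*, *Ifit3*, *Irf1*, *Irf7*, *Isg15*, *Psmb9*, *Tap1* and *Usp18*, so 9 of 27 were, against 4.53% of all genes. The MHC class II genes split by rat: *RT1-Da* differed by -2.08, 1.80, 0.50 and -0.62 and *Cd74*, the invariant chain, by -1.59, 1.80, 0.28 and -1.16. With scaling to the 75th percentile 20 of 27 were below 0 with a median of -0.10, and with quantile normalization 21 of 27 with a median of -0.04.

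**Figure D3:**
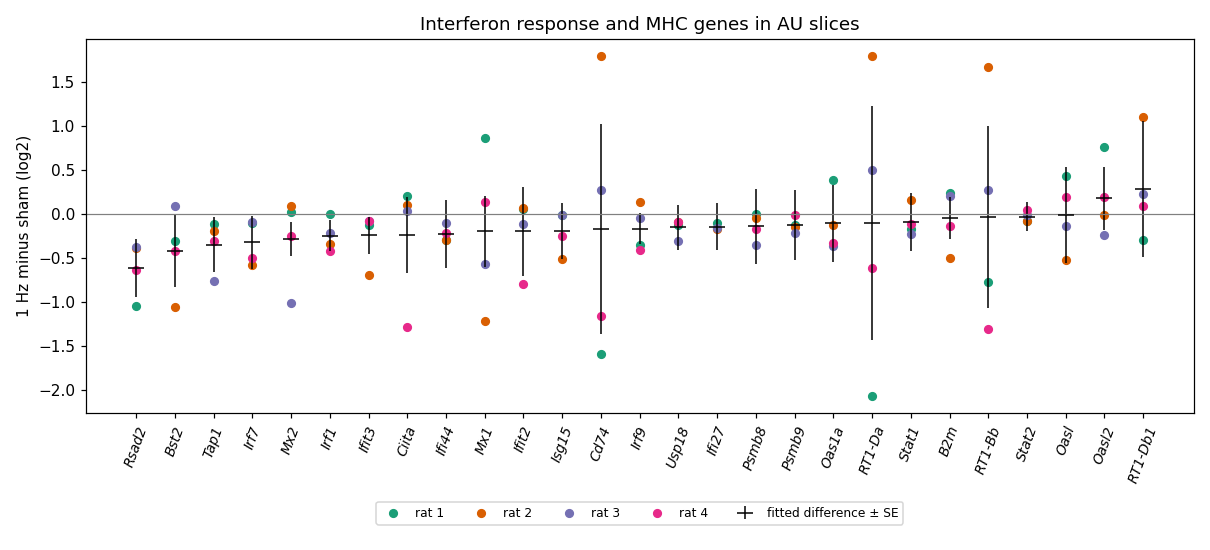
Difference between 1 Hz and sham (log2) for the 27 tested interferon response and MHC genes in each AU rat (points) and as fitted over the 4 rats with its SE (bars). All but *Oasl2* and *RT1-Db1* have a fitted value below 0, and the class II genes *Cd74*, *RT1-Da* and *RT1-Bb* spread most between rats.

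Of 34 cytokine and chemokine genes, 28 were below 0 with a median of -0.13, and 7 were lower in all 4 rats, against 4.53% of all genes. The 7 were *Ccl2*, *Ccl4*, *Cxcl10*, *Cxcl11*, *Il6*, *Tlr4* and *Lcn2*. *Ccl2*, which attracts monocytes, was read at 4.52, 4.52, 5.13 and 3.71 in sham and at 4.10, 3.93, 4.95 and 3.16 after 1 Hz, a difference of -0.43 ± 0.31 with overlapping groups. *Lcn2*, lipocalin 2 of reactive astrocytes, had the smallest p of the list, at -0.52 ± 0.16, with -0.52, -0.35, -1.13 and -0.07 in the 4 rats, -0.31 without rat 3, and -0.25 with normexp and quantile normalization. *Tgfb3* was the largest on the other side, at 2.10, of which the sham array of rat 3 at -5.76 gave 5.95, and without rat 3 the difference was 0.81. Of 24 complement genes, 22 were below 0 with a median of -0.12. Of these 24, *C1r*, *C1s*, *Cfp* and *Itgb2* were lower in all 4 rats, against 4.53% of all genes. Other components of the cascade had fitted differences of -0.09 for *C1qa*, -0.12 for *C1qb*, -0.02 for *C1qc* and -0.15 for *C3*, where the differences in rats 1 to 4 were -0.70, 0.92, -0.05 and -0.79. With scaling to the 75th percentile 16 of 24 were below 0.

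Markers of cells that carry such genes are given beside these lists. Homeostatic microglia markers were below 0 at 12 of 15 with a median of -0.05 (9 of 15 with scaling to the 75th percentile), border macrophage markers at 5 of 5 with -0.17 (3 of 5 with that scaling), where *Mrc1* was well above background on none of the 8 arrays, and red blood cell genes at 8 of 8 with -0.32 (8 of 8 with that scaling). Mean levels of the microglia list ran from 3.18 to 3.60 in sham and from 3.07 to 3.46 after 1 Hz, those of border macrophages from -0.93 to -0.51 and from -1.23 to -0.63, and those of red blood cells from 2.94 to 4.03 and from 2.73 to 3.48, so the groups overlapped in each. The microglia list split by rat. Its median was 0.28 in rat 1, with 2 of 15 below 0, and -0.13, -0.10 and -0.27 in rats 2 to 4. The red blood cell genes were lower chiefly in 2 rats, with medians of -0.64 in rat 2 and -0.57 in rat 4 against -0.06 in rat 1 and -0.01 in rat 3. Beside them, the interferon list was lowest in rat 4 and the cytokine list in rat 2, at -0.30. The part of these cells in the inflammatory lists was not tested.

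The mitochondrial and interneuron lists had more genes above 0 than below, against 46.6% of all genes above 0. Of 16 ATP synthase genes, 15 were above 0 with a median of 0.12, the exception being *Atp5mf* at -0.62 with -2.08 in rat 4 and -0.14 without that rat, and of 42 NADH dehydrogenase genes 32 were above 0 with a median of 0.05. Neither list held in every rat. In rat 2 the ATP synthase genes were below 0 at 9 of 16 and the NADH dehydrogenase genes at 27 of 42. With scaling to the 75th percentile the ATP synthase median was 0.082 and the NADH dehydrogenase median 0.024, against 0.049 over all genes. With quantile normalization these were 0.069 and 0.016, against 0.013 over all genes. Interneuron markers were above 0 at 13 of 16 with a median of 0.22, but rats 1 and 4, at 0.86 and 0.76, differed from rat 2 at 0.03 and rat 3 at -0.29. *Gad1*, which makes GABA, differed by 0.72, 0.03, -0.36 and 0.92, and *Sst*, somatostatin, by 1.48, -0.26, 0.11 and 0.39. *Kit*, whose sham value of rat 3 was missing and left out of the fit, was at 0.53 ± 0.26. A second probe of *Kit* gave 0.46, with 0.74, 0.41, -0.26 and 0.97 in rats 1 to 4. Ribosomal protein genes, a list by symbol that also catches the *Rps6ka* kinases, were above 0 at 58 of 93, but at 24 of 93 with scaling to the 75th percentile and at 34 of 93 with quantile normalization. In rats 1 to 4, 10, 73, 19 and 83 of these 93 genes were below 0.

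**Figure D4:**
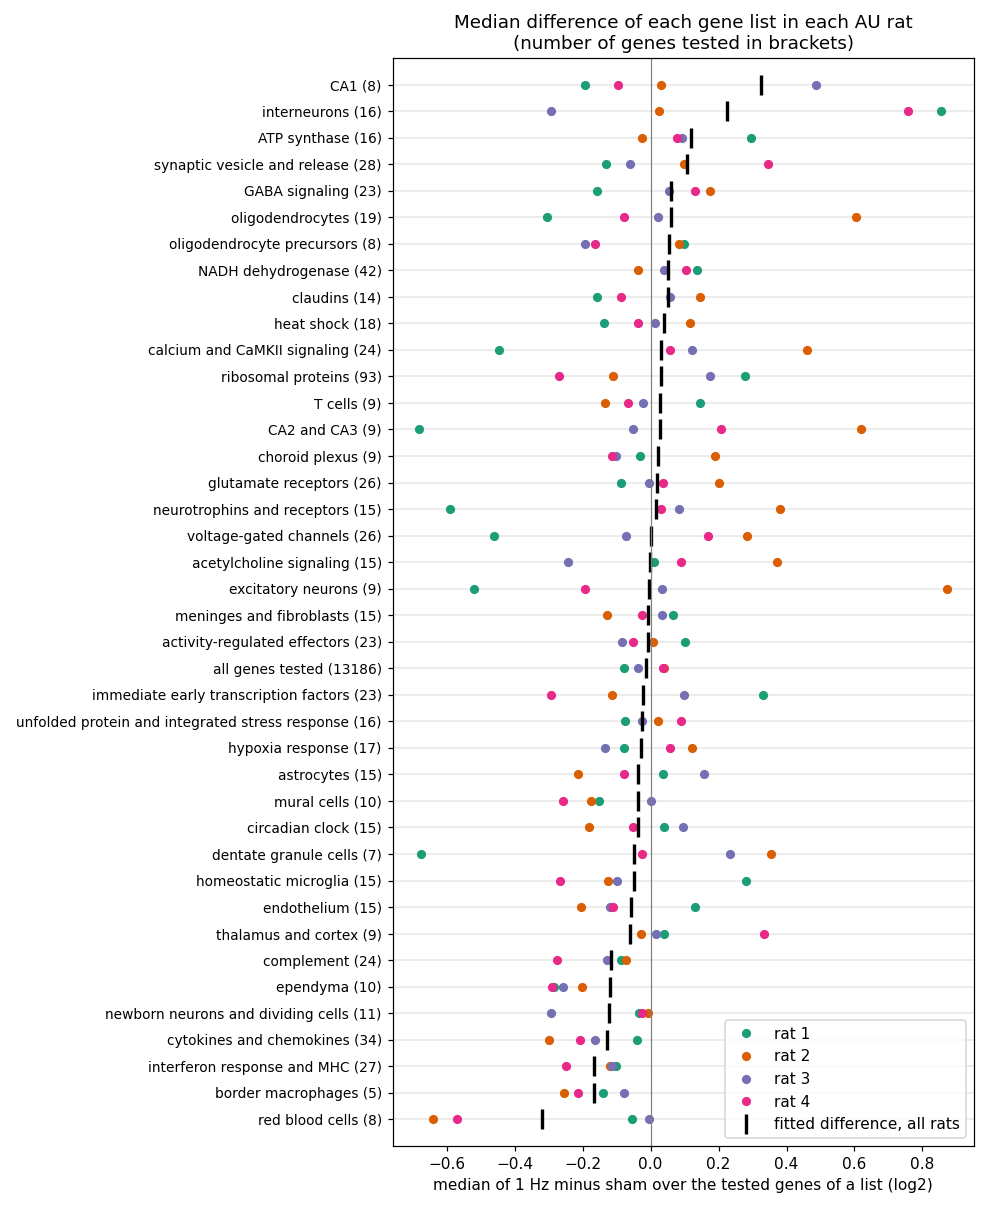
Median difference between 1 Hz and sham (log2) over the tested genes of each list, in each AU rat (points) and for the differences fitted over the 4 rats (bars), with all 13186 genes as reference. The interferon, cytokine, complement, border macrophage, ependyma, red blood cell and newborn neuron lists lie below 0 in all 4 rats, though by under 0.1 in some. Medians over all genes are -0.08, 0.04, -0.04 and 0.04 in rats 1 to 4. The cytokine, red blood cell and newborn neuron lists lie above that median in rat 1, and the red blood cell list also in rat 3. The excitatory neuron, dentate granule cell and CA2 and CA3 lists have rats on both sides of 0.

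Of 26 glutamate receptor genes, 15 were above 0 with a median of 0.02, and beside *Gria1* the genes at p under 0.05 were the metabotropic receptors *Grm6*, at 0.39 ± 0.14, and *Grm4*, at -0.72 ± 0.31. *Grm4* was lower in all 4 rats, with -0.02 in rat 4 and a fitted -0.41 without rat 2, and a second probe of *Grm6* gave 0.09. Of 28 synaptic vesicle genes, 18 were above 0 with a median of 0.11, and *Slc17a8*, a vesicular glutamate transporter, was at -0.67. *Slc18a3*, the vesicular acetylcholine transporter of the acetylcholine list, was at 1.12, but rested on 1 sham array. Sham of rat 4 read -5.70 for *Slc18a3*, its repeat -1.65, and with the repeat in place the difference was 0.11.

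Single 1 Hz arrays gave the values of some lower genes. *Per2*, a core clock gene, was at -1.58 with -6.25 in rat 4, and -0.03 without that rat. *Pdia4*, a disulfide isomerase, was at -1.45 with -5.19 in rat 3, and -0.21 without that rat. Lower in all 4 rats were *Adm*, adrenomedullin of the hypoxia response, at -0.43 ± 0.20 with -0.71, -0.26, -0.38 and -0.37, and *Spef2*, a gene of motile cilia, at -0.67 ± 0.30 with -1.63, -0.33, -0.04 and -0.67, or -0.34 without rat 1. *Aqp4*, the water channel of astrocyte endfeet, was at -0.40, with -1.24 in rat 3, and at -0.12 without that rat. *Cldn15*, a claudin, was higher in all 4 rats without overlap, at 0.31 ± 0.12, and at 0.24 to 0.36 leaving out 1 rat. With the repeat of sham 4 in place it was at 0.39, so a second hybridization of 1 sham sample moved the value.

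Of the genes that the study set out for the slice model, *Folr1*, a folate receptor of the choroid plexus, was the one at an unadjusted p under 0.05, at -1.36 ± 0.65. Its level was -1.88, -2.52, -2.44 and -1.99 in sham and -3.64, -2.33, -5.00 and -3.30 after 1 Hz, lower in 3 rats and higher in rat 2, and it was well above background on 3 of the 4 arrays of 1 Hz. With normexp and quantile normalization *Folr1* was at -0.45, and its p was over 0.05 with that setting, with scaling to the 75th percentile and without rat 1, 3 or 4. All 7 tested complement genes of that set were below 0, with a median of -0.12. The study chose this set on these samples, so they are no independent evidence of its direction. The genes *Cxcl13*, *Cldn2*, *Cldn4*, *Cldn6*, *Cldn7*, *Cldn16*, *Cldn20*, *Gabra6* and *Slc22a7* of that set were among those that did not pass the filter on dim probes. In the other direction, *Cnp*, a myelin enzyme, was at 0.71 ± 0.36 with 2.57 in rat 3, and *Grin3a*, an NMDA receptor subunit, at 0.69 ± 0.39 with 2.36, -0.44, -0.43 and 1.27.

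The response of AU slices to 1 Hz was set beside that of young and AI slices by the test of the difference itself. No probe passed after adjustment, with 608 (1.87%) at an unadjusted p under 0.05 against young and 908 (2.79%) against AI. The smallest p in the contrast with young slices belonged to *Nos1*, neuronal nitric oxide synthase, at 0.43 in AU and -0.99 in young (difference 1.42 ± 0.34), *C2cd4c* at 0.37 and -0.42, and *Calb1* at 0.87 and -0.63 (SE of the contrast 0.42). Their adjusted p was 1. Against AI slices they were *Acy3*, an aminoacylase, at -0.37 and 0.51, *Kap* at 0.86 and -0.80, and *Gpr143* at -0.34 and 0.44, with adjusted p of 0.999. The inflammatory lists had medians of -0.17, -0.36 and 0.04 (interferon and MHC), -0.12, -0.40 and 0.17 (complement) and -0.13, -0.36 and 0.10 (cytokines) in AU, young and AI slices, and these differences between lists were not tested.

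Stimulation with iTBS in AU slices was measured against the same 4 sham arrays, so that the values of both protocols share them. The 5 genes that rested on a single sham array had iTBS differences of 1.09 (*Sart3*), 1.18 (*Vcp*), 1.57 (*Gria1*), 1.09 (*Fbxo9*) and 1.33 (*Gspt2*). *Calb1* was at 0.87 after 1 Hz and 0.67 after iTBS, *Smoc2* at -0.87 and 0.11, *Rspo3* at -0.97 and -0.04, and *Fosl1* at -0.80 and -1.31. The direct contrast of the protocols needs no sham array, but in rat 4 the 1 Hz and iTBS arrays lay on different slides. It gave 2017 probes (6.19%) at an unadjusted p under 0.05, of which 542 were higher after 1 Hz. With scaling to the 75th percentile 1032 of 1522 were higher. In the main fit 1 probe (0.00307%) passed after adjustment, the unnamed A_44_P1144145, at 1.56 ± 0.23 (adjusted p = 0.0396). It lay well above background on 3 sham and 2 of the 1 Hz arrays. This call was lost in 11 of 16 alternatives, among them leaving out rat 1, rat 2 or rat 3. *Smoc2* was 0.97 lower after 1 Hz than after iTBS, with a contrast of -0.97 ± 0.25 (adjusted p = 0.764), *Lgals2*, a galectin, differed by 1.21 ± 0.30 and *Myl4*, a myosin light chain, by 0.55 ± 0.15, each with the same adjusted p.

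**Figure D5:**
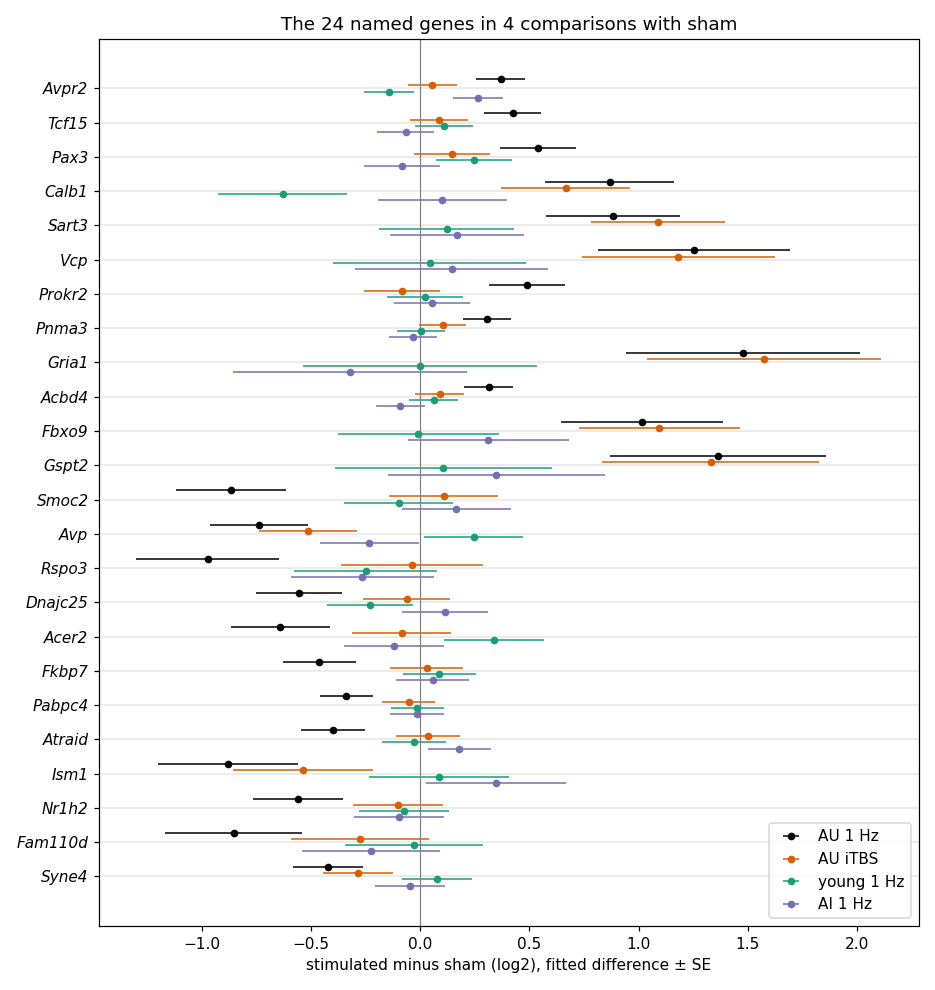
Fitted difference from sham with its SE (log2) of the 24 named genes in AU slices after 1 Hz and after iTBS, which share the sham arrays, and in young and AI slices after 1 Hz. The 5 genes with a single low AU sham array lie at 0.88 or above in both AU comparisons and at 0.35 or below in young and AI slices.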

How the data were processed

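Expression was measured on one-color Agilent rat arrays. The authors scanned them and extracted Cy3 intensities with Feature Extraction 12.0.3.1, and the deposited processed intensity is background-subtracted and detrended, per the file headers. The deposited table holds 1 score per feature and array, the log intensity that the authors centered and divided by the SD of its array (z-score). Here z-scores were recomputed from log2 intensities of the 58717 non-control features (of 62976) and multiplied by 4.074, the mean SD of the 36 primary arrays. They differ from the deposited ones by at most 0.005. Spots marked as outliers were left out (490 of 1641528 probe values were missing). No feature was saturated. Probes numbered 45598, of which 21109 matched 1 gene symbol through RefSeq transcripts, and 32562 (71.4%) passed the filter, namely well above background on all 4 arrays of 1 or more of the 9 groups.

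limma 3.58.1 in R 4.3.3 fitted all 36 primary arrays with 9 groups and the 12 rats as a fixed block, with Benjamini-Hochberg adjustment over all tested probes. Numbers pair the arrays because the labels give the same animal. Deviations of sham and 1 Hz arrays from their group means correlated at 0.329 to 0.478 within a rat, but also at 0.657 between sham 2 and 1 Hz 1, 0.392 between sham 1 and 1 Hz 2 and 0.357 between sham 4 and 1 Hz 3. Each rat's sham and 1 Hz arrays lay on 1 slide. The members and gene lists were chosen with earlier results of these data known. Named genes were the 12 with the smallest p in each direction among genes well above background on all 8 arrays with the same sign in 4 rats, the smallest p of each list in each direction with markers of lists whose level is given, the genes of the study's own table, the probes past its criteria, the 3 smallest p in each contrast with another group, and probes detected in 1 group alone. Others named were chosen after their values were seen. A gene was read from its brightest probe. With the fit tested on simulated data (32136 probes, 200 changed), log2 changes of 3 and 4 were recovered at 96% and 98% of the changed probes, with 12 false calls. The number of arrays limits the precision. Alternatives were scaling to the 75th percentile, normexp on median signals with quantile normalization, the deposited z-scores, other filters, blocks and sets of arrays, and leaving out each rat. The 3 other repeat hybridizations were not used. That of sham 4 was used for the spread and as an alternative added after the data were seen. Some genes that the rule names are not reported here.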

Additional observations from a re-analysis of the deposited data

Results flagged for a closer look

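Of 70 groups of 4 arrays, 11 held an array that stood apart from the other 3. The rule flags about 1 in 20 groups of unselected values, but all 11 belong to genes chosen by these same differences. The count can therefore not be set against that rate. In sham, rat 3 stood apart for *Avpr2* (-2.80), *Sart3* (-3.56), *Vcp* (0.15), *Fbxo9* (-2.91) and *Gspt2* (-3.03). Sham of rat 4 did so for *Gria1* (-0.42) and *Rspo3* (2.23), and sham of rat 2 for *Avp* (1.27) and *Atraid* (2.70). After 1 Hz, rat 3 stood apart for *Rspo3* (0.00565) and rat 4 for *Pabpc4* (2.44). The difference between 1 Hz and iTBS in AU slices passed the test at 1 unnamed probe (A_44_P1144145), at 1.56 on the log2 scale.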

How the results depend on the processing

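The count of probes at an adjusted p under 0.05 in AU 1 Hz against sham was 0 under all 18 alternatives. The count at an unadjusted p under 0.05 (1075) was 644 with the strict filter, 625 with the 12 AU arrays alone, 550 with the 8 arrays alone, and 863 to 1968 when 1 rat was left out, 1968 without rat 2. Without the replicate block it was 561, and the pairing by rat gave no call in either fit. With the repeat of sham 4 in place of its array, chosen after seeing the data, it was 1260, of which 42.1% were higher, and 34.9% and 31.3% were higher with 12 and 8 AU arrays. For the contrast with young slices (608) it was 950 without a filter, 216 without the replicate block and 507 to 1459 leaving out 1 rat, and for that with AI slices (908) 1483, 193 and 818 to 1587, with 486 when the slide was added to the block. For 1 Hz against iTBS (2017) it was 811 without the replicate block and 1471 to 3078 leaving out 1 rat. The single adjusted call of that contrast was 0 with scaling to the 75th percentile, quantile normalization, the deposited z-scores, no filter, the strict filter, no replicate block, 12 AU arrays, and a trended robust fit, and 0 to 1 leaving out 1 rat. The reading of the selection criteria gave 2 probes, 77 without its threshold on the mean z, 0 with the false discovery rate taken over all probes, and 2 to 15 leaving out 1 rat, 15 without rat 2. No value of the 53 named genes passed the adjusted threshold under any alternative, and many of these genes were chosen for 1 sign in all 4 rats, so their direction says little about stability. *Pdk1* turned its sign, at -0.0187 without rat 3 and up to 1.07 otherwise, whose 3 other probes lay between -0.08 and 0.07. Of 810 list medians 18 moved by more than the spread between rats. The cause was not tested. Dim probes near background limit what the arrays can show.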
